A study of Mus musculus with 88 samples.

Results

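Oxidative phosphorylation in mouse nucleus accumbens was followed through its nuclear genes. The members were the protein-coding genes on nuclear chromosomes whose mouse symbols begin with the names of subunits of complexes I to V (Ndufa, Ndufb, Ndufc, Ndufs, Ndufv, Sdha to Sdhd, Uqcr, Cox4i, Cox5, Cox6, Cox7, Cox8 and Atp5), without the Ndufaf assembly factors. Of the 55487 genes counted, 111 carried such a prefix. Of these, 13 were not protein coding and 8 were Ndufaf genes, which left 90 members with 89 symbols. By name, 38 belonged to complex I, 4 to complex II, 8 to complex III, 18 to complex IV and 18 to complex V. The prefix Sdha also took in 4 genes of a different role, the complex II assembly factors Sdhaf1 to Sdhaf4, which are kept apart here. Atp5s, a coupling factor, and Cox7a2l, which helps join complex III to complex IV, are also no subunits in the strict sense, and Ndufa4, named for complex I, is now counted with complex IV. Atp5o stands in the table under both ENSMUSG00000022956 and ENSMUSG00000116933. Of the members 3 lie on chromosome X and the others on autosomes, and their exons sum to 360 to 8086 bases (median 1560). Genes to which the results return are Cox4i1 (chr8:120668222-120674207, plus strand, mm10), Sdha (chr13:74322254-74350280, minus), Cox7a2l (chr17:83501918-83517330, minus) and Ndufa10 (chr1:92439010-92473860, minus). The exons of the 2 Atp5o genes overlap on chromosome 16, so their reads cannot be apportioned with certainty.

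RNA came from accumbens tissue taken 6 days after surgery from female and male mice backcrossed to C57BL/6. All groups had received 2 herpes simplex vectors, the first with a nuclease-dead Cas9 joined to CREB(S133D), a constitutively active CREB, and the second with a guide RNA. The guide was either g11, aimed at Fosb (the targeted groups), or gNT, aimed at no locus (the control groups). Arms of 3 kinds, each in both sexes, make 12 groups: Cre-dependent virus in D1-Cre mice (D1), Cre-dependent virus in D2-Cre mice (D2), and virus without Cre dependence in D1-Cre mice (D1-D2). The controls thus carry the same CREB fusion as the targeted groups, and the tissue holds both infected and uninfected cells. The D1 arm had 8 control and 6 targeted libraries in females, and 4 and 7 in males. The D2 arm had 8 and 8 in females, and 8 and 7 in males. The D1-D2 arm had 8 and 12 in females, and 7 and 4 in males. The labels say neither the age of the mice nor whether a library is 1 animal, so p-values measure the spread between these libraries. In bulk tissue, fewer cells of a type and less RNA per cell cannot be told apart.

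Total counts ran from 12430387 to 69568367 in the 87 libraries. Of these, 78 belonged to sequencing batch 1 and 9 to batch 2, and batch 2 held male D2 libraries alone (6 control and 3 targeted). In 4 targeted libraries (female D2 17907 and 18432, female D1-D2 19610, male D1-D2 18919) over 90% of reads fell on 10 genes. There the members held 0.043% to 0.0761% of all counts, against 1.01% on average over all libraries. The defining markers of the tissue were present: all 11 medium spiny neuron markers were found, Drd1 at a median of 242 CPM (counts relative to the library total, scaled by TMM) and Ppp1r1b at 335. Of the libraries labelled female, the targeted 17376 (D1) and 19749 (D1-D2) held Xist at 35.2 and 29.96 CPM together with the Y-linked Ddx3y at 37.0 and 30.9 CPM, a gene whose median was 71.5 CPM in males. The targeted libraries 18722 (male D1) and 18749 (male D1-D2) were each closest to the other, with a median absolute log2 difference of 0.11 over the tested genes, the smallest of any library to its closest. Fosb, the targeted gene, overlapped between guides in each arm. Its group means ran from 4.51 to 9.52 CPM in controls and from 6.29 to 10.7 CPM in targeted groups, and in no arm did its difference pass edgeR's quasi-likelihood test (adjusted p from 0.695 to 1).

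The respiratory chain passes electrons from NADH (complex I) and succinate (complex II) through complex III to complex IV, which reduces oxygen. Complexes I, III and IV pump protons across the inner mitochondrial membrane, and complex V lets them return to make ATP. Most of the subunits are encoded in the nucleus, and a few, at the cores of complexes I, III, IV and V, in mitochondrial DNA. Neurons depend on this pathway for the energy of firing and synaptic transmission. NRF1 is known as a regulator of many of these genes, and CREB binds the cAMP response element (CRE).

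Promoters are shown first, because the vector protein is a CREB fusion. Windows from 250 bases before to 50 bases after the transcription start were taken from RefSeq (build GRCm38.p6) and matched 71 of the 89 symbols by name. The full palindromic CRE, TGACGTCA, was found on either strand in 4 of 71 windows (5.63%), against 2.03% of the 27025 promoters in the table. Below, the element stands in capitals within 30 bases, 5′ to 3′ along the gene's strand.
Ndufa10: acactcagtggTGACGTCAtggcagcgcgc
Ndufa11: tttacctttccTGACGTCAcgggcgtctct
Ndufb2: gtgcgacgcagTGACGTCAcgggccgggac
Uqcrfs1: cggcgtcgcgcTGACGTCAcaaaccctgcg
These stretches lie at chr1:92473807-92473836 (minus strand), chr17:56717593-56717622 (plus), chr6:39592540-39592569 (plus) and chr13:30545327-30545356 (minus). The elements themselves occupy bases 67 to 60, 158 to 151, 14 to 7 and 29 to 22 before RefSeq's start. GENCODE's gene bounds differ from it: those of Ndufa10 and Uqcrfs1 take in the printed stretch. In 49 of the 71 windows the bases just after RefSeq's start were found in a GENCODE transcript of the gene. Ndufa10, Ndufa11 and Ndufb2 are accessory subunits of complex I, and Uqcrfs1 is the Rieske iron-sulfur protein of complex III.

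The NRF1 element GCGCATGCGC, also palindromic, was found in 5 windows (7.04%, against 1.07% of all promoters), printed in the same way.
Atp5g2: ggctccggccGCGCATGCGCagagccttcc
Atp5k: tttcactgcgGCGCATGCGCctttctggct
Cox6a1: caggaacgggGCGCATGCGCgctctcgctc
Ndufa11: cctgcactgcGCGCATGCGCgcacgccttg
Uqcrc1: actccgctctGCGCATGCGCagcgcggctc
They lie at chr15:102671070-102671099 (minus), chr5:108434430-108434459 (minus), chr5:115349101-115349130 (minus), chr17:56717692-56717721 (plus) and chr9:108936668-108936697 (plus). The elements occupy bases 42 to 33 (Atp5g2), 50 to 41 (Atp5k), 162 to 153 (Cox6a1) and 60 to 51 (Ndufa11) before RefSeq's start. That of Uqcrc1 lies after it, at bases 31 to 40. GENCODE's gene bounds take in the printed stretches of Atp5g2 and Uqcrc1. Ndufa11 held both elements. On either strand the YY1 letters AAGATGGCG were in 7 windows (9.86%, against 1.64%), the ETS letters CCGGAAGT in 5 (7.04%, against 4.31%) and the AP-1 letters TGANTCA in 7 (9.86%, against 8.97%). A match is a description of the letters and not a binding site.

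Per kilobase of exon, complexes III and IV stood highest, with medians of 69.3 and 65.5 CPM per kb over their members, followed by complex II (58.3), complex V (49.3) and complex I (44.4). The assembly factors Sdhaf1 to Sdhaf4 had a median of 3.92 CPM per kb. The divisor is the summed length of all annotated exons. In some genes this is far longer than the principal transcript, as in Atp5l (6443 against 544 bases) and Ndufb7 (4522 against 623). The order of genes and complexes may therefore depend on this choice. The highest member was Cox8a, a small membrane subunit of complex IV (287 CPM per kb), followed by Cox4i1, a large nuclear subunit of complex IV (247 CPM per kb). The catalytic head of complex V came close behind, with Atp5a1 at 245 and Atp5b at 227 CPM per kb. In complex I the values spread from 117 CPM per kb for Ndufa2 down to 0.849 for Ndufa4l2, in complex II from 73.6 for the membrane anchor Sdhd to 27.3 for Sdhc, and in complex III from 151 for the hinge protein Uqcrh to 27.8 for Uqcrq. In complex V, Atp5s was lowest (3.84 CPM per kb), and among the assembly factors the range was 13.5 (Sdhaf4) to 1.57 (Sdhaf3). The plot of levels per kilobase shows that complexes I, IV and V reach far lower than complexes II and III.

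**Figure D1:**
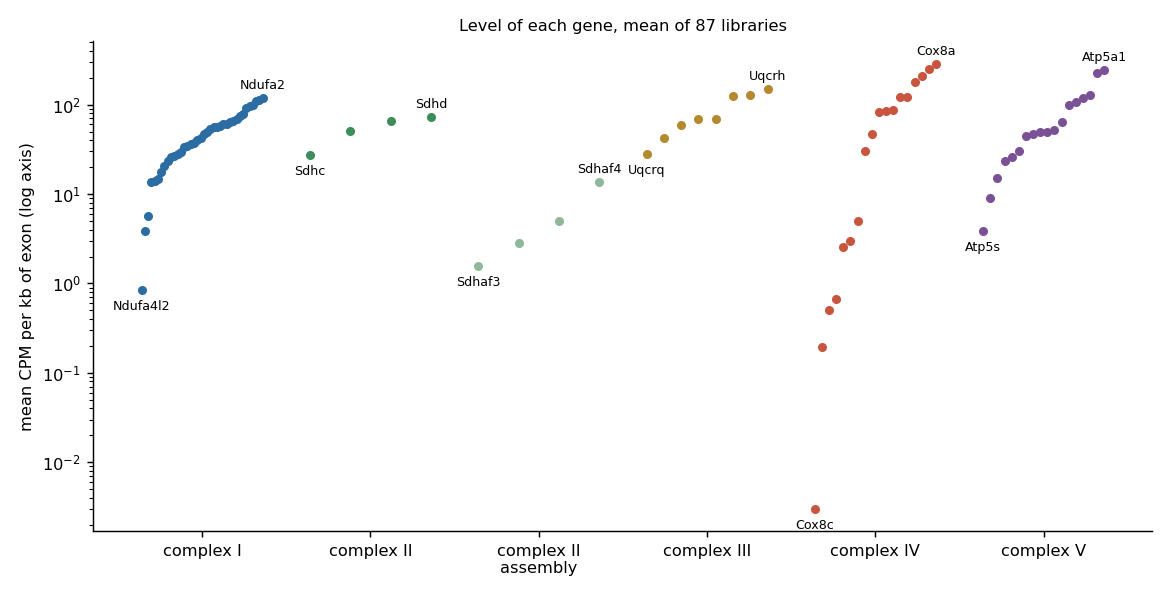
Mean level of each of the 90 genes over 87 libraries, in CPM per kb of exon on a log axis, by complex, with the highest and the lowest of each complex named. Complex IV spans the widest range, from Cox8a at 287 to Cox8c at 0.00298 CPM per kb.

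Several of the low genes of complex IV were paralogs known from other tissues. Cox4i2, described in lung, stood at 3.01 CPM per kb beside 247 for Cox4i1. Cox6a2, a heart and muscle form, reached 5.04 against 210 for Cox6a1, and Cox6b2, a testis form, 0.674 against 179 for Cox6b1. Cox7a1, another muscle form, reached 2.57 CPM per kb against 120 for Cox7a2, and Cox7b2 0.510 against 85.2 for Cox7b. Cox8b had no count in 19 libraries and Cox8c none in 83, with 5 counts in all. These 2 did not pass the filter on low counts, which left 88 members tested. Of the 3 genes for the identical mature c subunit of the complex V rotor, Atp5g3 was highest (63.5 CPM per kb), then Atp5g2 (26.2) and Atp5g1 (14.9).

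Across libraries the set was summarised as the mean log2 CPM of the 90 genes. Female D1 controls had 5.72 ± 0.19 (SD, n = 8), female D2 controls 5.70 ± 0.18 (n = 8) and female D1-D2 controls 5.67 ± 0.22 (n = 8). The male D1 controls were the highest group, at 6.09 ± 0.11 (n = 4, from 5.94 to 6.19), and male D1-D2 controls stood at 5.74 ± 0.25 (n = 7). In the targeted groups the values were 5.61 ± 0.16 (female D1, n = 6), 5.86 ± 0.16 (male D1, n = 7), 5.64 ± 0.18 (female D2, n = 8), 5.69 ± 0.16 (female D1-D2, n = 12) and 5.54 ± 0.19 (male D1-D2, n = 4). All 4 male D1 controls lay above every library of the female D1 targeted (5.39 to 5.80), female D2 control (5.43 to 5.92) and male D1-D2 targeted (5.36 to 5.72) groups. The other groups of at least 4 libraries in batch 1 overlapped one another.

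Male D2 libraries fell into separate levels by sequencing batch. Those of batch 1 had 5.80 and 5.97 (control) and 5.86 ± 0.15 (targeted, n = 4). Those of batch 2 had 4.67 ± 0.09 (control, n = 6) and 4.69 ± 0.14 (targeted, n = 3). The 78 libraries of batch 1 ran from 5.34 to 6.19, so no library of batch 2 reached them. In summed CPM the members held 9723 per library in batch 1 (7420 to 13009) and 4594 in batch 2 (4133 to 5034). Transcripts of the 13 mitochondrially encoded subunits were not lower in batch 2, with means of 5462 and 5555 summed CPM, and of 5.53 and 6.26 as mean log2 CPM.

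**Figure D2:**
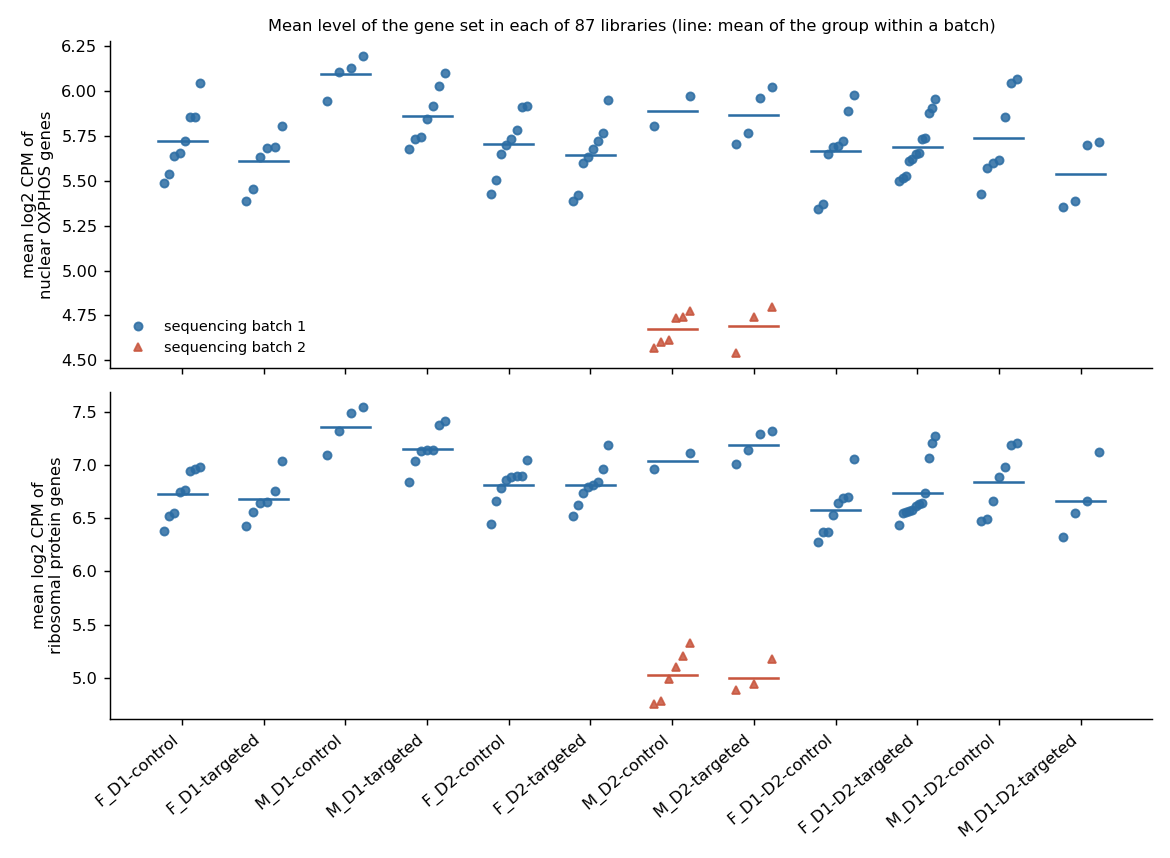
Mean log2 CPM of the 90 oxidative phosphorylation genes (above) and of 92 cytosolic ribosomal protein genes (below) in each library, by group; circles are batch 1, triangles batch 2, and lines are means of a group within a batch. The 9 libraries of batch 2 lie below all 78 of batch 1 in both panels.

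Cytosolic ribosomal protein genes, another large set of short and abundant transcripts, moved in parallel between the batches and within batch 1. Their mean log2 CPM was 6.84 ± 0.30 (SD, n = 78) in batch 1 and 5.02 ± 0.20 (n = 9) in batch 2. The difference between the sets (oxidative phosphorylation minus ribosomal) was −1.11 ± 0.19 in batch 1 and −0.34 ± 0.23 in batch 2, so the ribosomal genes were lower in batch 2 by a larger amount. Within batch 1 both levels correlated across the 78 libraries, with Pearson's r = 0.77 and Spearman's rho = 0.77 (r = 0.74 without the 2 libraries farthest from the median). The points share library depth, scaling and tissue makeup, and the values are a description. Assembly factors of the chain (46 genes, r = 0.93) also followed the members, though Sdhaf1 to Sdhaf4 are in both lists. Enzymes of the citric acid cycle (16 genes, r = 0.03) and mitochondrially encoded subunits (r = 0.19) did so little. Erythrocyte markers, taken as their mean log2 CPM, correlated with the members at r = 0.65. Those of astrocytes did so at −0.55, of microglia at −0.52, and of endothelium and pericytes at −0.45. Markers of oligodendrocytes (−0.30), medium spiny neurons (−0.28), parvalbumin interneurons (−0.27) and lymphocytes (−0.25) were also negative. Those of choroid plexus and ependyma (0.32) and of cortical glutamatergic neurons (0.07) were positive. Their part in the level was not tested. Within the 9 libraries of batch 2, members and ribosomal protein genes had r = −0.07 and rho = 0.10. There the citric acid cycle enzymes had r = 0.80 with the members, and the assembly factors 0.88.

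The members did not all vary together. In batch 1, the gene closest to the mean of the others was Atp5j2 (complex V, r = 0.96), with Cox7a2 (complex IV, 0.96), Ndufb5 (0.95), Atp5o (0.95) and Atp5h (0.94), all small noncatalytic subunits. At the other end were Sdha, the flavoprotein that oxidises succinate (r = −0.42), Atp5d of the complex V central stalk (−0.41), Ndufa10 (−0.17), Cox6a2 (−0.17) and Cox6b2 (−0.05). Sdha went against the ribosomal protein level even more (r = −0.80). Some long and abundant core genes were only loosely tied to the rest: Atp5a1 had r = 0.08 and Ndufs1, the largest complex I subunit, r = 0.24.

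The guide to Fosb was compared with the control guide in each arm, in 1 model with 12 groups and batch, tested with edgeR's quasi-likelihood method with Benjamini-Hochberg adjustment over 25420 genes. No member passed an adjusted p of 0.05 in any arm. The same was found with DESeq2, and with limma-voom in all arms but male D1. Among all genes the share called was 0.00393% (D1), 0% (D2) and 0% (D1-D2) for females, and 0% (D1), 0.0629% (D2) and 0.00393% (D1-D2) for males. The median member had a standard error of 0.11 to 0.15 log2 units by arm. The text below therefore gives levels, and counts at an unadjusted p under 0.05 beside the share of all genes that pass it. That share is from the main fit. A count from another setting, or without some libraries, stands without its own share unless one is printed. Such counts show dependence on the setting and say nothing particular about the members.

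In the male D1 arm the members were lower with the Fosb guide in 77 of 88 cases, with a median log2 difference of −0.26. At an unadjusted p under 0.05 there were 20 lower members and no higher one, against 7.11% of all genes in either direction. This count ran from 12 to 47 when 1 of the 4 controls was left out, lowest without 18383 and highest without 18069. The 7.11% is from the full fit and cannot be set beside those counts. Atp5j, a stalk subunit of complex V, had 122.7, 111.0, 95.6 and 108.5 CPM in the 4 controls, and in the 7 targeted libraries a lowest value of 73.9, a median of 87.6 and a highest of 105 CPM. The groups overlapped through 1 control. Its log2 difference was −0.36 (SE 0.12, adjusted p = 0.686). Ndufa8, an accessory subunit of complex I, had 86.6, 85.1, 74.6 and 84.6 CPM in controls and from 58.6 over 63.9 (median) to 78.5 CPM in targeted libraries, again with 1 control inside the targeted range. Its log2 difference was −0.33 (SE 0.11, adjusted p = 0.686).

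The 20 lower genes of the male D1 arm were all among the 57 subunits outside the catalytic cores: 13 of complex I (such as Ndufs5 at −0.38 and Ndufb2 at −0.37), 2 of complex III, 3 of complex IV and 2 of complex V. The median of these 57 was −0.29. The 20 core subunits (the redox centres of complexes I to III and the head, stalk and ring of complex V) had a median of −0.06. Among them, Sdha stood at 0.10 and Atp5a1 at 0.09, neither past the test. The members also differed by length. The 52 with a principal transcript under 1000 bases had a median of −0.32 and the longer ones −0.13. Over all genes with a length these medians were −0.08 and 0.06. Role and length were not separated, and the part of either was not tested. limma-voom with library quality weights called 7 members lower in this arm, against 2.94% of all genes: Ndufa8, Atp5j, Ndufab1, Ndufs5, Sdhaf2, Ndufa6 and Uqcrb. Ribosomal protein genes were lower by a like amount, with a median of −0.22 and 88 of 89 below 0. Medium spiny neuron markers had a median of 0.39 and erythrocyte markers one of −0.44. Their part was not tested.

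The female D1 arm showed smaller differences of the same sign. In all, 84 of 88 members were lower with the Fosb guide, with a median of −0.13, and 4 had an unadjusted p under 0.05 (4.48% of all genes): Cox7b2, Sdhb, Atp5g1 and Ndufs7. Cox7b2, a paralog near the limit of detection, had 0.196, 0.278 and 0.338 CPM (lowest, median, highest) in controls and 0.0651, 0.116 and 0.197 CPM in targeted libraries. The groups touched at their edges, and the log2 difference was −1.03 (SE 0.38). Sdhb, the iron-sulfur subunit of complex II, had 106, 121 and 148 CPM in controls and 90.6, 110 and 126 CPM in targeted libraries, a log2 difference of −0.16 (SE 0.07). The largest positive values belonged to the scarce Cox6b2 (0.45, SE 0.36) and Cox7a1 (0.35, SE 0.33). Markers of cortical glutamatergic neurons had a median of 2.19 in this arm, with 4 of 6 higher at an unadjusted p under 0.05 and none called, and summed to 19.1 to 229 CPM in controls and 59.8 to 664 CPM in targeted libraries. Their part was not tested. Without the targeted libraries 17376, 18722 and 18749 the count of 4 was 8, all lower, in a fit whose share of all genes is not given.

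In the D2 arms no member reached even an unadjusted p under 0.05, a level that 1.66% of all genes passed in females and 2.18% in males. The medians were −0.04 in females, with 59 of 88 below 0, and 0.00 in males, with 41 of 88 below 0. Both signs depend on the processing: the female median turned positive in 5 of 11 alternatives and the male median negative in 8 of 11. The smallest p-values among females belonged to Uqcrq (−0.20, SE 0.12), a complex III subunit, and Cox8a (−0.12, SE 0.09) on the lower side, and to Ndufv3 (0.11, SE 0.08) and Cox6b2 (0.44, SE 0.36) on the higher. In males they were Ndufs5 (−0.18, SE 0.13) and Ndufa1 (−0.18, SE 0.16), and Atp5g2 (0.20, SE 0.11) and Cox7b2 (0.51, SE 0.33).

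In the female D1-D2 arm the median was 0.03 and 31 of 88 members were below 0. Cox7a1, the muscle form, was the 1 member at an unadjusted p under 0.05 (3.4% of all genes). It had 0.536, 0.871 and 2.26 CPM (lowest, median, highest) in controls and 0.628, 1.61 and 2.61 CPM in targeted libraries, so the groups overlapped over most of their range. Its log2 difference was 0.58 (SE 0.28). Atp5g2 followed with 0.17 (SE 0.09), and on the lower side Ndufs1 with −0.15 (SE 0.09) and Sdha with −0.10 (SE 0.08). Ribosomal protein genes had a median of 0.16, above that of the members.

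In the male D1-D2 arm, 79 of 88 members were lower, with a median of −0.19. Atp5h, a peripheral stalk subunit of complex V, had 135, 147 and 240 CPM in controls (lowest, median, highest) and 114.7, 160.2, 105.9 and 157.1 CPM in the 4 targeted libraries. The targeted values fell into a low pair (17728 and 18919) and a pair within the controls. In library 18919, 94.4% of reads fell on 10 genes and 0.0686% on the members, so its value rests on few reads. The log2 difference of Atp5h was −0.34 (SE 0.16). Sdhaf1, with −0.28 (SE 0.14), was the other member at an unadjusted p under 0.05, a level that 3.22% of all genes passed. The count of 2 was 6 without the targeted libraries 17376, 18722 and 18749, a fit whose share of all genes is not given. The positive values were small, as in Cox6a2 (0.10, SE 0.23) and Atp5a1 (0.06, SE 0.10). The median was −0.07 without library 17728, and it turned to 0.08 once the trend of each library with exon length was removed.

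**Figure D3:**
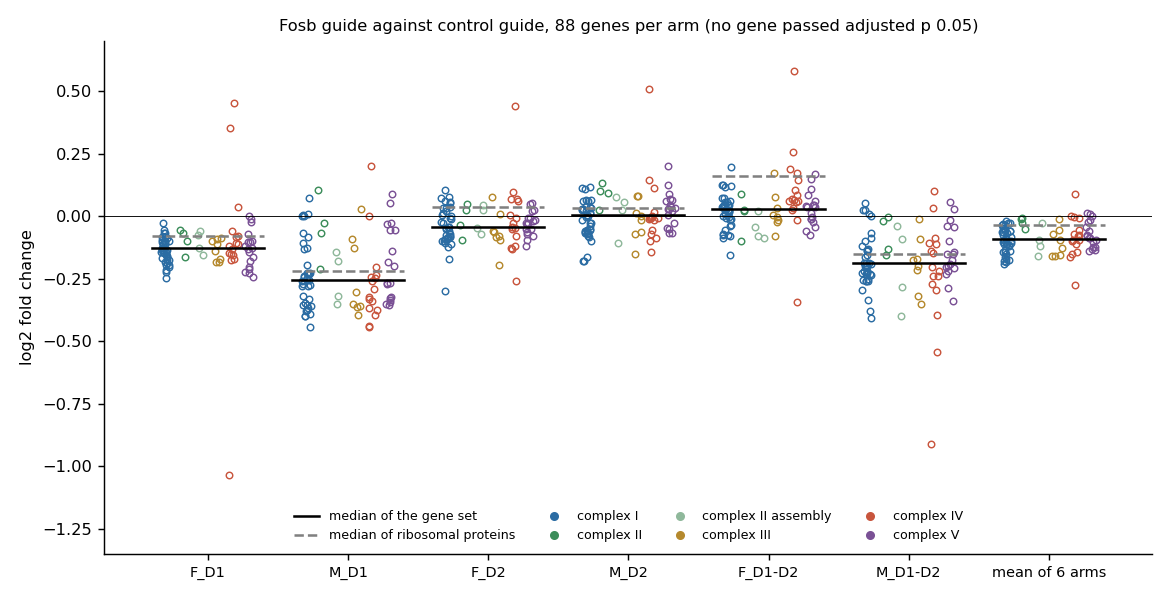
Log2 fold change of each of 88 members, Fosb guide against control guide, in the 6 arms and their mean; colours mark complexes, the black line is the median of the members and the dashed line that of 89 ribosomal protein genes. All points are open because none passed an adjusted p of 0.05; the medians lie between −0.26 (male D1) and 0.03 (female D1-D2).

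Averaged over the 6 arms, 83 of 88 members were lower with the Fosb guide, with a median of −0.09, and none passed the adjusted threshold, as did 0% of all genes. At an unadjusted p under 0.05 there were 31 lower members, against 9.52% of all genes. They were led by Ndufs5 (−0.16, SE 0.05, adjusted p = 0.516), an accessory subunit of complex I, and Uqcrq (−0.16, SE 0.05). The highest were Cox6a2 (0.09, SE 0.08) and Atp5d (0.01, SE 0.04). Of the 57 noncore subunits 28 were among the 31. The count of 31 was 8 with the length trend removed (median −0.02), 1 with 3 surrogate variables, 19 without the 4 libraries of low complexity and 20 without male D1 control 18383. The 9.52% is from the main fit and does not apply to these settings. The median of ribosomal protein genes was −0.03. Erythrocyte markers had a median of −0.32 (3 of 5 lower at an unadjusted p under 0.05) and microglial markers one of 0.26 (3 of 6 higher). Their part was not tested.

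The guide's difference in the D1 arms minus that in the D2 arms was tested as an interaction. No member passed it with edgeR's quasi-likelihood test (0.00393% of all genes did), and 7 lower members had an unadjusted p under 0.05 (3.65% of all genes). Without the targeted libraries 17376, 18722 and 18749 there were 11, in a fit whose share of all genes is not given. The median was −0.17, with 84 of 88 below 0, beside −0.19 for ribosomal protein genes. Cox7b2 (−0.94, SE 0.37) and Ndufa8 (−0.23, SE 0.10) led on the lower side, and Cox4i2 (0.18, SE 0.23) and Ndufa4l2 (0.09, SE 0.26) on the higher.

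Members with the full CRE gave no common picture between guides. Ndufb2 had log2 differences of −0.15, −0.37, −0.10, −0.08, −0.08 and −0.26 in female D1, male D1, female D2, male D2, female D1-D2 and male D1-D2. Ndufa10 had −0.14, 0.00, −0.06, 0.06, −0.08 and 0.01 in the same order. Ndufa11 ranged from −0.24 (male D1) to 0.06 (female D1-D2), and Uqcrfs1 from −0.17 (male D1-D2) to 0.03 (female D1-D2). None of these passed the adjusted threshold. Both guides came with the same CREB fusion, so this comparison cannot show whether the fusion itself acts at these promoters.

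Female and male controls differed more than the guides did. Averaged over the 3 kinds of arm, 53 of 88 members passed an adjusted p of 0.05 with edgeR's quasi-likelihood test, 50 of them lower in females and 3 higher, against 28.6% of all genes called. At an unadjusted p under 0.05 the counts were 58 lower and 5 higher, against 39.8% of all genes. The median log2 difference, female minus male, was −0.24 over the members and −0.43 over ribosomal protein genes, of which 78 of 89 were called lower. All marker lists share these libraries: 4 of 11 medium spiny neuron markers were called higher in females (median 0.41), as were 3 of the 4 genes listed for parvalbumin interneurons, a list that holds Gad1, which medium spiny neurons also express, and 3 of 7 endothelial, 2 of 6 microglial, 1 astrocyte and 1 oligodendrocyte marker. No erythrocyte marker was called. Whether these carry the members' difference was not tested.

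By complex, 24 members of complex I fell in females, from Ndufa5 (−0.50, SE 0.10) and Ndufa6 (−0.45, SE 0.09) to Ndufa4. The others were Ndufa1, Ndufa2, Ndufa3, Ndufa8, Ndufa11, Ndufa13, Ndufab1, Ndufb2 to Ndufb11, and Ndufs4, Ndufs5, Ndufs6 and Ndufv2. In complex II the anchor Sdhd fell (−0.21), and so did the assembly factor Sdhaf1 (−0.22). In complex III the small subunits Uqcrh (−0.54), Uqcrb, Uqcrq, Uqcr10 and Uqcr11 fell. In complex IV they were Cox7a2l (−0.43, SE 0.08, adjusted p = 0.000136), Cox6c, Cox7c, Cox6b1, Cox7b, Cox4i1, Cox7a2, Cox5b and Cox7a1. In complex V they were Atp5j, Atp5k, Atp5h, Atp5c1, Atp5j2, Atp5mpl, Atp5l, Atp5f1 and both Atp5o genes. Of the 57 noncore subunits 45 were lower and 1 higher, and of the 20 core subunits 3 lower and 2 higher. The 3 members higher in females were Sdha (0.24, SE 0.06), Ndufa10 (0.21, SE 0.07) and Atp5a1 (0.17, SE 0.06). Sdha and Ndufa10 also had 2 of the 5 lowest correlations with the other members. With the length trend of each library removed 22 members were called, and without the batch term 12, of which 11 were higher. In that last setting 24 of the 53 took the opposite sign, none of them past the test.

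Split by arm, in comparisons added after the data were seen, the sex difference was called in D1 controls and not in the other arms. In D1 controls 54 members passed (52 lower, 2 higher in females, 22.4% of all genes called), with a median of −0.43. The count was 25 without male library 17789, 21 with the length trend removed and 4 without the batch term. Ndufa6 had 51.2, 65.9 and 90.6 CPM (lowest, median, highest) in the 8 female controls and 115.3, 115.1, 93.3 and 109.3 CPM in the 4 males, without overlap. Its log2 difference was −0.69 (SE 0.15). Cox7a2l had 145, 175 and 235 CPM in females and 336.8, 294.4, 237.3 and 253.9 CPM in males, again without overlap, a log2 difference of −0.62 (SE 0.14). For Atp5j the values were 61.0, 72.2 and 83.5 CPM in females against 95.6 to 122.7 CPM in males (−0.59, SE 0.11). Sdha went the other way, with 257, 298 and 331 CPM in females and 210.2, 212.4, 210.1 and 268.1 CPM in males. The groups overlapped through the male library 18383, and the log2 difference was 0.41 (SE 0.11).

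In D2 controls no member was called by sex (0.0551% of all genes), with a median of −0.19. In all, 10 members had an unadjusted p under 0.05, a share near the 10.8% of all genes at that level. In D1-D2 controls none was called either (0.0629% of all genes), with a median of −0.11, and 5 members reached that level, again near the share of all genes (7.04%). The difference between the sex effect in D1 controls and the mean of the other arms was tested itself, and no member passed (0% of all genes), with a median of −0.27. A total of 10 lower members had an unadjusted p under 0.05, against 8.88% of all genes. DESeq2 also called none here, limma-voom called 19 (10.8% of all genes), and edgeR without the batch term 19. With the Fosb guide, 3 members were lower in D1 females than in D1 males: Sdhaf1 (−0.47, SE 0.12), Cox7a2l (−0.50, SE 0.13) and Ndufb7 (−0.46, SE 0.12), against 0.767% of all genes. The count ran from 0 (batch 1 alone, among others) to 41 (3 surrogate variables), settings for which no share of all genes is given. These libraries are separate from the controls, and 53 members were lower at an unadjusted p under 0.05 (21.8% of all genes in either direction), with a median of −0.30. Medium spiny neuron markers summed to 2013 to 2628 CPM in the male and 1984 to 4763 CPM in the female D1 controls. Their part was not tested.

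**Figure D4:**
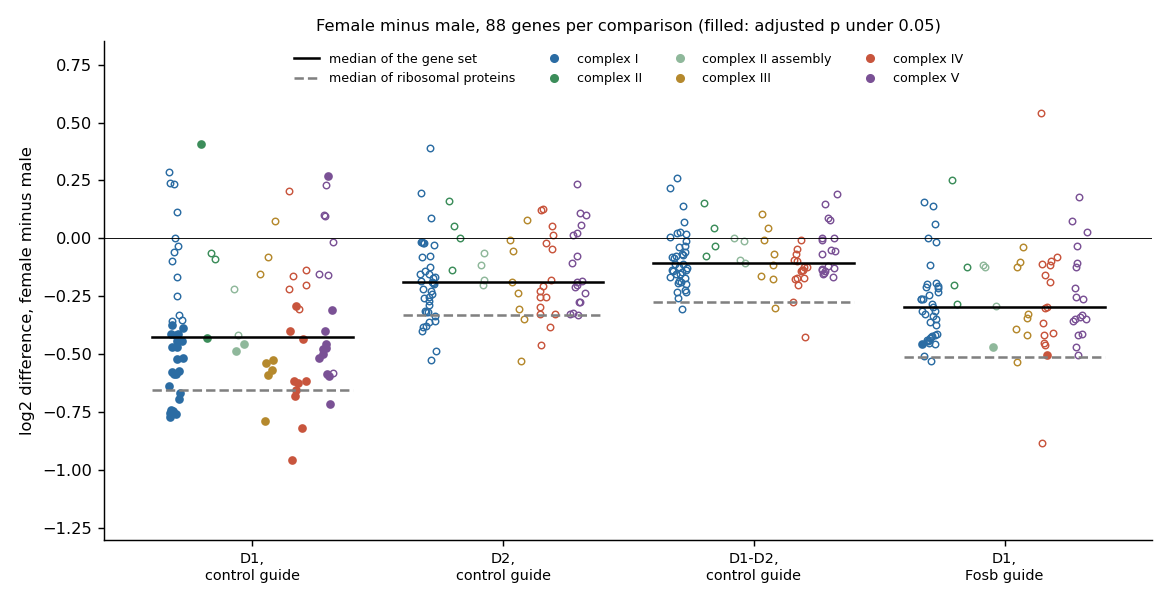
Log2 difference, female minus male, of 88 members in 4 sets of libraries; filled points passed an adjusted p of 0.05, lines are medians of the members (black) and of ribosomal protein genes (dashed). The D1 controls have the lowest median (−0.43) and nearly all of the filled points; Sdha is the high filled point of complex II at 0.41.

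The other contrasts of controls used the same 4 male D1 libraries, so they are given side by side and not as separate evidence. D1-D2 controls against D1 controls (both in D1-Cre mice, with and without Cre dependence of the virus) had 8 members called, all lower, against 4.64% of all genes. They were Cox7a2l (−0.32, SE 0.09), Cox7c (−0.36, SE 0.11), Uqcrq (−0.30), Ndufa6 (−0.32), Ndufa8 (−0.23), Atp5j (−0.24), Sdhd (−0.28) and the Atp5o gene ENSMUSG00000116933 (−0.29), at adjusted p from 0.0414 to 0.0494. Cox7c, a small complex IV subunit, had 163.5, 150.7, 132.5 and 153.0 CPM in male D1 controls against 71.5, 90.7 and 131 CPM (lowest, median, highest) in male D1-D2 controls, without overlap. In females the ranges were 77.4 to 120 CPM in D1 and 56.6 to 115 CPM in D1-D2 controls, with wide overlap. At an unadjusted p under 0.05 there were 56 lower and 2 higher members, against 23.2% of all genes, and the median was −0.23. Sdha (0.20, adjusted p = 0.0802) and Ndufa10 (0.17) were the highest. The 8 calls were not stable when male D1 controls were left out in turn. Without library 17789, 18068 or 18069 none was called, and without 18383 there were 6, of which 5 were among the 8 and the other was Sdha. Single libraries of the other control groups were not left out, so the calls cannot be laid to the male D1 controls alone.

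D2-Cre controls against D1-Cre controls, both with Cre-dependent virus, had no member called by edgeR's quasi-likelihood test (0.0118% of all genes). At an unadjusted p under 0.05 there were 3 lower members (2.56% of all genes), and the median was −0.13. Cox8a (−0.20, SE 0.08) and Cox6a1 (−0.16, SE 0.07), both of complex IV, had the smallest p, and on the higher side Ndufs1 (0.03, SE 0.09) and Uqcrc1 (0.01, SE 0.07).

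Sequencing batch gave the widest differences among the members. Within the male D2 groups, batch 2 minus batch 1, a comparison added after the data were seen, had 81 of 88 members called with edgeR's quasi-likelihood test, 79 lower and 2 higher, against 62.3% of all genes. The median was −1.34 over the members and −2.25 over ribosomal protein genes. Cox4i1 had 641.0 and 428.5 CPM in the 2 controls of batch 1, and 58.7, 55.2, 65.1, 70.1, 71.4 and 55.6 CPM in the 6 of batch 2. The log2 difference was −3.00 (SE 0.17), a fold of 0.125. Ndufa13 of complex I fell from 184.2 and 133.7 CPM to between 21.4 and 25.5 CPM (−2.68, SE 0.12). Sdha was not called, at 261.2 and 227.5 CPM in batch 1 and 208 to 250 CPM in batch 2 (−0.06, SE 0.10, adjusted p = 0.611). Atp5b, the catalytic subunit of complex V, lay between, with 1120 and 914.0 CPM in batch 1 and 454 to 605 CPM in batch 2 (−0.89, SE 0.09).

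The members not called by batch were Sdha, Ndufa10 (−0.14, SE 0.11), Atp5d (−0.19, SE 0.10), Atp5s, Sdhaf3, Cox6b2 and Ndufa4l2. Higher in batch 2 were Cox7b2 (1.55, SE 0.35) and the Atp5o gene ENSMUSG00000116933 (0.74, SE 0.13), whose overlapping partner fell by 2.20 (SE 0.13). The first Atp5o gene had 113.2 and 101.9 CPM in batch 1 controls and 21.2 to 25.3 CPM in those of batch 2, while the second had 49.2 and 50.2 CPM against 73.6 to 104 CPM. Core subunits had a median of −0.92 and noncore subunits −1.50. Difference and length went together: over the 88 members, log2 difference and length of the principal transcript had a Spearman's rho of 0.50, beside 0.40 over ribosomal protein genes and 0.37 over 16814 genes with a length. The 52 members under 1000 bases had a median of −1.51 and the longer ones −0.95. Genes are not independent replicates, and these are descriptions. The same rho over the members was 0.52 for the guides in male D1, 0.51 for the sexes and 0.54 for D1-D2 against D1 controls. Erythrocyte markers summed to 19.2 to 72.9 CPM in batch 2 and 66.7 to 697 CPM in batch 1. Their part, and that of length, in the members' difference was not tested.

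**Figure D5:**
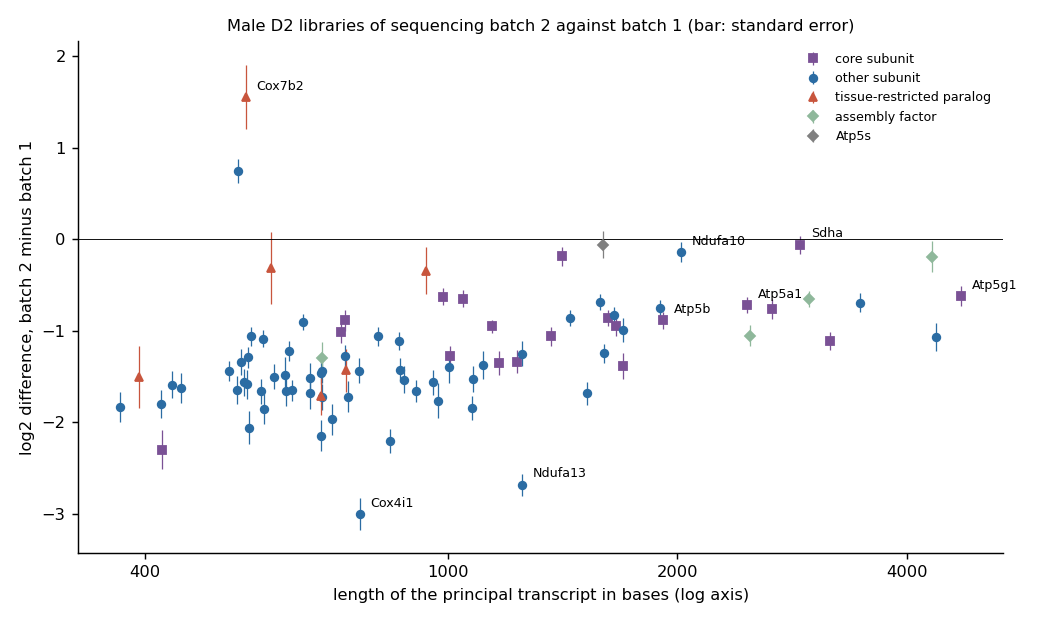
Log2 difference of each of 88 members, batch 2 minus batch 1 within the male D2 groups, against the length of the principal transcript in bases (log axis); bars are standard errors and shapes mark roles. Nearly all members lie below 0, Cox4i1 is lowest at −3.00, and Sdha and Ndufa10 lie near 0.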

How the data were processed

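Total RNA of mouse nucleus accumbens was sequenced after ribosomal depletion with a stranded kit, per the labels' protocols. Per the submitters' processing notes, Trim Galore, HISAT2, SAMtools, featureCounts (Subread), DESeq2 1.27 and mm10 were used on the reads. Annotation and strand setting were not given in the sources used here. Deposited values are raw counts of reads per gene. Of 88 labelled libraries 87 had a column, and 1 column without a matching label was not used.

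Members and lists were chosen with earlier results of these data known. Named were all members past adjusted p 0.05 (in the 11 planned comparisons; in most added ones only examples or exceptions), the 2 smallest p in each direction, extremes per kb and of correlation, and restricted paralogs with their partners. Genes also named for a complex, a batch extreme or a CRE were chosen after their values were seen. CPM were scaled by TMM (prior count 2 for log2). Tests used edgeR 4.0.16 (R 4.3.3; quasi-likelihood, robust, filterByExpr, 12 groups and batch), Benjamini-Hochberg over 25420 genes. Standard errors are the log2 difference over the root of F. Alternatives used limma 3.58.1, DESeq2 1.42.0 and sva 3.50.0. Of 17 comparisons, 11 were planned and 6 added. The procedure was tested on simulated data. Gene positions are GENCODE M21 on mm10.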

Additional observations from a re-analysis of the deposited data

Results flagged for a closer look

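Among 22 checks of groups of 4 to 10 libraries, 1 library stood apart. In male D1 controls, library 18383 had a difference of −0.962 (mean log2 CPM of the oxidative phosphorylation genes minus that of ribosomal protein genes), while the other 3 controls lay at −1.383 to −1.353. The gap to its nearest neighbour was 0.93 of the group's range. Chance flags about 1 in 20 groups.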

How the results depend on the processing

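Of the members called in any comparison, none changed sign under the alternatives run, except 24 of the 53 called by sex, which took the other sign without the batch term and were not called there. Of the recomputed counts of called members, 185 stayed within 1.5 times and 30 did not. The 185 include counts of 0 that stayed at 0, as in guide comparisons, so they say little about stability. The counts of members that follow are not set beside the share of all genes called in the same setting. They show dependence on the setting and say nothing particular about the members. Of single genes and medians, 804 stayed, 22 lost and 10 gained a call, and 18 moved. Without the batch term the counts were 2 (male D2 guide), 12 (female minus male controls, 11 of them higher, with a median of 0.05), 77 (D2-Cre minus D1-Cre), 82 (by sex in D2 controls), 4 (by sex in D1 controls) and 19 (the sex difference in D1 minus the others), since batch 2 then counts as part of the male D2 groups. The batch comparison itself, with the term in the model, called 62.3% of all genes. With the length trend removed the sex count was 22, and 21 in D1 controls. For D1-D2 minus D1 controls the count of 8 became 0 with the length trend removed, no low-count filter, no batch term, batch 1 alone or only the groups compared, 26 with DESeq2, 59 with limma-voom, 61 with 3 surrogate variables, and 0 to 6 when 1 male D1 control was left out. With limma-voom the counts were 7 (male D1 guide) and 19 (the sex difference in D1 minus the others). By sex in D1 controls the count of 54 became 25 without male D1 control 17789 and 25 to 50 over all such omissions. DESeq2 size factors shifted the median of all genes there by −0.14 and that of the members to −0.54. By sex in D1 with the Fosb guide the count of 3 became 0 in batch 1 alone, with the length trend removed, no low-count filter or no batch term, 1 without the targeted libraries 17376, 18722 and 18749, 22 with DESeq2, 38 with limma-voom and 41 with 3 surrogate variables. Without the female libraries 17376 and 19749, chosen after seeing the data, it stayed at 3. The cause was not tested. No paired analysis was possible because each number in the labels belongs to a single library. Depth limits Cox7b2, Cox6b2, Cox8b, Cox8c and Ndufa4l2, which had under 1 CPM on average.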

Other observations

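Assembly factors of the respiratory chain fold, mature or join subunits. The list of 46 includes Sdhaf1 to Sdhaf4, which are also members, and its other genes lie outside the members. By edgeR's quasi-likelihood test with Benjamini-Hochberg adjustment, 17 of the 46 were called lower and 4 higher in female than in male controls. Their median was −0.13, and 28.6% of all genes were called. Enzymes of the citric acid cycle and pyruvate dehydrogenase had 5 of 16 called higher and none lower, a share near that of all genes. Among 13 mitochondrially encoded subunits 1 was called higher and 1 lower. Across the same controls the regulators of mitochondrial biogenesis had 4 of 16 higher and 1 lower, also near that share.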
